A study of Mus musculus with 40 samples.

Results

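Neutrophils sorted from colon tumors of mice were compared with neutrophils from the blood of healthy mice, and blood neutrophils of tumor-bearing mice were placed between these ends of the path. The comparison used 12 of the 40 RNA sequencing libraries of the series, 4 libraries for each of the 3 groups, chosen by their labels. Tumor neutrophils (T_CG) and blood neutrophils of tumor-bearing mice (T_PG) came from Cdx2CreERT2 - Apc fl/fl mice, in which a Cre recombinase driven by the intestinal Cdx2 promoter deletes the tumor suppressor Apc after a single intraperitoneal tamoxifen dose of 25 mg/kg given at 8 to 10 weeks of age. Their strain label reads C57Bl6/Sv followed by a number that differs for every library, so their exact background is uncertain here. Blood neutrophils of healthy mice (WT_PG) came from C57Bl6 mice without transgene or agent. Strain, Cre and Apc alleles, tamoxifen and tumor therefore cannot be told apart between healthy and tumor-bearing mice, whereas blood and tumor of the tumor-bearing mice share all of them. All cells were sorted as CD45+ EpCAM- CD11b+ MHCII- Ly6C-low Ly6G+. Blood had only its red cells lysed, whereas tumors were digested with collagenase, Dispase and DNase, so tissue and handling cannot be told apart either. By its title, blood replicate 3 of the tumor-bearing mice pooled a pair of mice, and tumor replicate 4 and tumor-bearing blood replicate 2 came from 1 mouse.

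Neutrophils are made in the bone marrow, where they fill azurophil granules first and specific and gelatinase granules later, and they leave for the blood with most of these transcripts already switched off. In tissue they sense microbial products, cytokines and low oxygen, and NF-kappaB, the transcription factor family behind many inflammatory genes, drives chemokines, interleukin 1 and its own inhibitors. Interferons induce a separate set of antiviral genes in neutrophils. In tumors, neutrophils have been described both as helpers of tumor growth and as suppressors of T cells. Below, the first step means blood of tumor-bearing against blood of healthy mice, the second step means tumor against blood of tumor-bearing mice, and the whole path means tumor against blood of healthy mice.

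Depth was 10716847 to 19260023 counts per library. Tumor replicates 1 and 2 each stood apart from replicates 3 and 4. The mean squared difference of their counts, relative to counting error, was 26.76 between replicates 3 and 4 and 288.1 to 340.7 for the other pairs of tumor libraries. Mitochondrial genes took 37.5% of the counts of tumor replicate 1, against 33.2%, 18.1% and 17% in tumor replicates 2, 3 and 4 and 5.34% to 16.8% in blood. The median level of 15 epithelial markers, as a percentage of their level in sorted tumor epithelial cells, was 71.9% in tumor replicate 1, 11.6%, 13.7% and 4.79% in tumor replicates 2 to 4, and at most 0.108% in blood, although the gate excluded EpCAM. Epcam itself, the adhesion protein used in the gate, was measured at 33.9, 5.91, 8.94 and 2.60 RPKM (reads scaled to gene length and library size) in tumor replicates 1 to 4 and at no more than 0.0293 RPKM in any blood library. Tumor replicate 2 had the fewest genes with a count, 17199, the lowest TMM scaling factor, 0.4762 against 0.8895 to 1.319 in the other 11 libraries, and the lowest limma library weight, 0.1136, followed by 0.2463 for tumor replicate 1. Replicate 1 had the lowest summed level of 10 neutrophil markers, 2033 RPKM against 6341 to 12751 RPKM in the other tumor libraries. Ly6g, the marker of the gate, was present in every library at 1.18 to 39.3 RPKM. The azurophil granule genes Mpo, Elane, Prtn3 and Ctsg, which mark marrow precursors, averaged at most 0.0796 RPKM in each group. Xist, transcribed in females, was above 1 RPKM only in healthy blood replicates 1 and 2 and in tumor-bearing blood replicates 3 and 4, so sex was mixed in both blood groups but not in tumor. In bulk RNA, fewer cells of a type and less RNA per cell cannot be told apart, and p-values measure the spread between these libraries. Where leaving out tumor replicate 1 changed the whole-path call of a gene or the whole-path or second-step count of a list described here, the value without it is given.

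**Figure D1:**
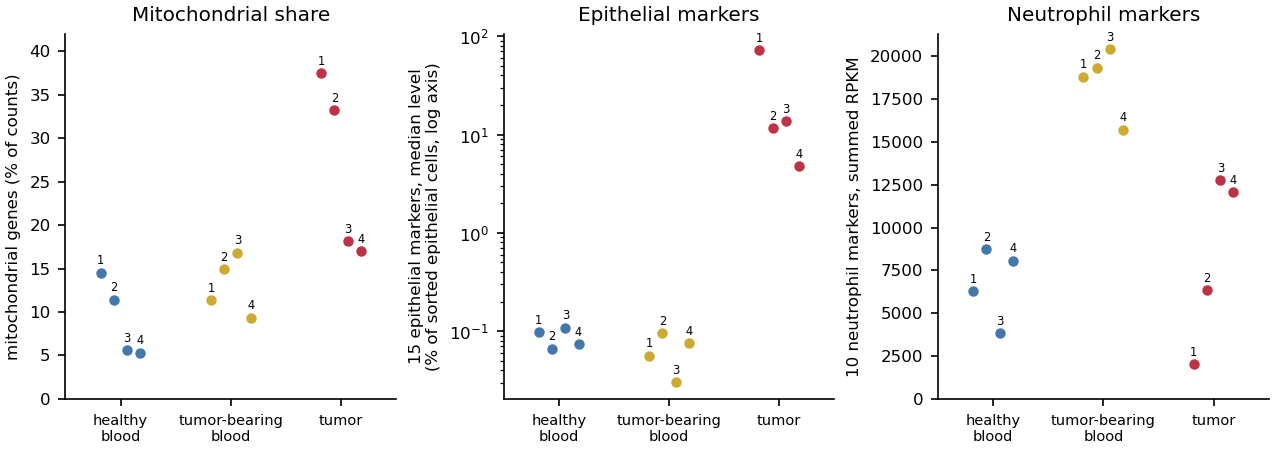
Share of counts on mitochondrial genes (left, percent), median level of 15 epithelial markers as a percentage of that in sorted tumor epithelial cells (middle, log axis) and summed RPKM of 10 neutrophil markers (right), with 1 point per library, numbered by replicate, in healthy blood, blood of tumor-bearing mice and tumor. Tumor replicate 1 is highest for the first and second measure, at 37.5% and 71.9%, and lowest for the third, at 2033 RPKM.

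Far more genes were called between blood and tumor than between the 2 kinds of blood. Calls needed an adjusted p under 0.05 and an absolute log2 fold change over 1.5 in 1 edgeR quasi-likelihood model of the 12 libraries, in which 15141 genes were tested. Along the whole path 3358 genes were called (22.2%), of which 2093 were higher (13.8%) and 1265 lower (8.35%) in tumor. The second step gave 3303 calls (21.8%), 2224 higher (14.7%) and 1079 lower (7.13%). Of the whole-path calls 62.3% were higher, a share that was 50.1% with limma-voom and 62.6% with RLE size factors. The median change of all genes was 0.06 (log2) in the edgeR model and -0.21 with limma-voom. The first step gave 81 calls (0.535%), 53 higher (0.35%) and 28 lower (0.185%) in blood of tumor-bearing mice. In this model the spread is shared with the tumor libraries. A fit of the 8 blood libraries alone called 536 of 13360 genes (4.01%), 239 higher (1.79%) and 297 lower (2.22%), and 77 of the 81 genes were among them in the same direction. The 81 calls were close to the threshold. Their median adjusted p was 0.0351, and leaving out any 1 blood library left 3 to 13 calls. Without regard to size, 1084 genes (7.16%) were higher and 1055 (6.97%) lower in all 4 tumor-bearing blood libraries than in all 4 healthy ones. These shares of all genes tested are the background for the list counts below.

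Without tumor replicate 1, the whole path gave 1929 higher and 1321 lower genes, 2756 calls were shared with the 12-library fit and 0 were called in opposite directions. The second step then gave 1976 higher and 1054 lower genes, and the first step 118 higher and 73 lower, among them all 81 genes. For the 2093 genes that rose along the whole path, blood of tumor-bearing mice lay at a median of 2.91% of the way from healthy blood to tumor on the log2 scale, and at 6.09% without tumor replicate 1. Of these genes, 900 were nearer healthy blood, 206 nearer tumor, 954 beyond the healthy end and 33 beyond the tumor end. For the 1265 genes that fell, the median was 15.36% of the way, with 719 nearer healthy blood, 170 nearer tumor, 340 beyond the healthy end and 36 beyond the tumor end. Of the 2093 genes that rose, 1443 (68.9%) were as high or higher in sorted tumor epithelial or stromal cells, which was also the case for 69.6% of all genes tested. Above the epithelial, stromal and monocytic cells of the tumor were 478 of the 2093, a count not compared with all genes tested. How much those cells contributed was not tested.

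Calls of both steps sorted the genes into 4 paths. Stepwise genes, called in the same direction in both steps, numbered 8 and all rose. Tumor-step genes, called along the whole path and in the second step but not in the first, numbered 2358, of which 1603 rose and 755 fell. In 737 of them the steps themselves also differed by test. Blood-step genes, called in the first step and along the whole path but not in the second step, numbered 38, of which 22 rose and 16 fell. In 20 of the 38 the steps themselves also differed by test. Reversing genes, called in opposite directions in the 2 steps, numbered 25. Of these, 15 rose in blood and fell in tumor and 10 fell in blood and rose in tumor. Both steps use the same tumor-bearing blood libraries, so a high value there favours a reversing call by itself. Refitted without tumor replicate 1, the same path was found for 8 stepwise, 1868 tumor-step, 38 blood-step and 23 reversing genes, and the 4 paths then held 15, 2161, 90 and 45 genes.

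**Figure D2:**
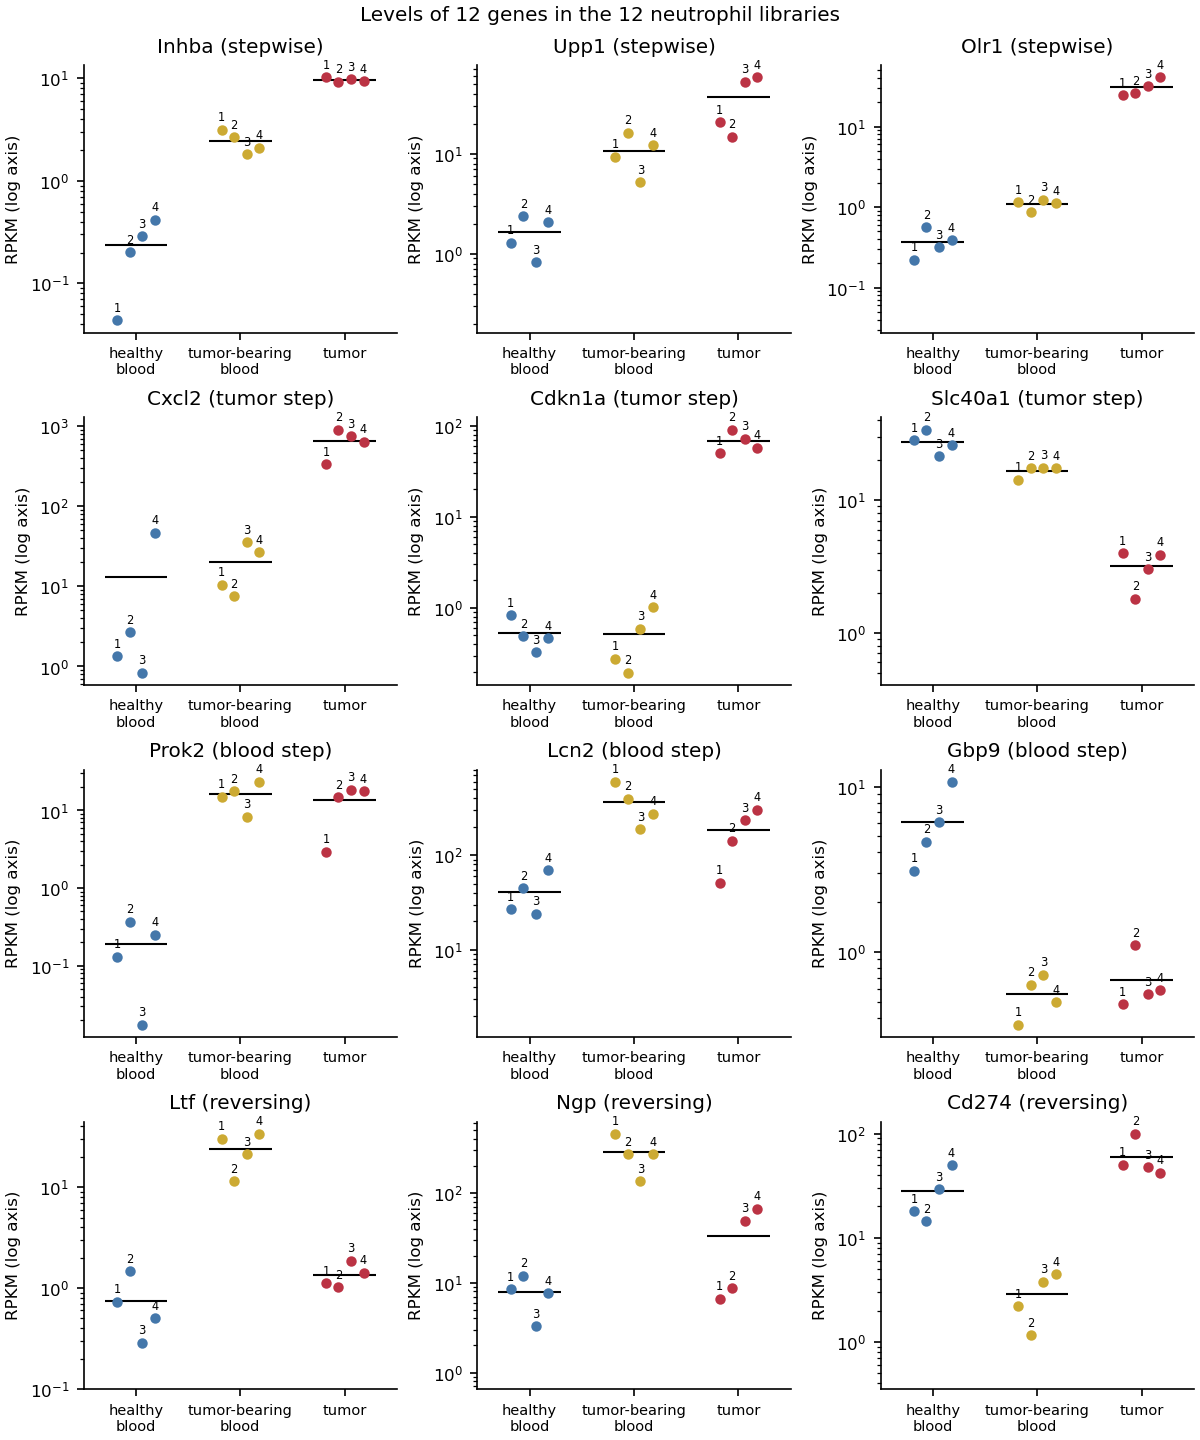
RPKM (log axes) of 12 genes in the 12 libraries, 1 point per library numbered by replicate, with bars at the group means, and 3 genes for each path. Ltf and Ngp are highest and Cd274 lowest in all 4 libraries of tumor-bearing blood, whereas Cxcl2 and Cdkn1a are apart from both blood groups only in tumor.

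Genes that rose in blood and fell again in tumor were led by proteins of the specific granules. Ltf encodes lactoferrin, the iron-binding protein of these granules. Its level was 0.733, 1.47, 0.288 and 0.506 RPKM in healthy blood, 30.3, 11.4, 21.1 and 33.8 RPKM in blood of tumor-bearing mice, and 1.11, 1.02, 1.87 and 1.42 RPKM in tumor. The blood libraries of tumor-bearing mice were at least several-fold above all others, and the healthy and tumor groups overlapped. Ltf rose by 5.12 ± 0.51 (SE) on the log2 scale in the first step (edgeR, adjusted p = 0.00154, the lowest of the 81 calls) and fell by 4.12 ± 0.49 in the second (edgeR, adjusted p = 0.000109). Camp, the precursor of the antimicrobial peptide CRAMP, was at 0.11, 1.71, 0.35 and 0.252 RPKM in healthy blood, 20.8, 5.79, 8.6 and 30.1 RPKM in tumor-bearing blood, and 0.469, 0.213, 1.45 and 0.198 RPKM in tumor, with a whole-path change of 0.05 ± 0.81 (log2). Ngp, a neutrophil granule protein of the cystatin family, was measured at 8.43, 12, 3.31 and 7.70 RPKM in healthy blood, 456, 270, 135 and 271 RPKM in tumor-bearing blood and 6.62, 8.74, 49.1 and 66.9 RPKM in tumor. Tumor replicates 1 and 2 were within the healthy range for Ngp and replicates 3 and 4 were above it. Ngp was therefore called along the whole path as well, at 2.10 ± 0.64 (edgeR, adjusted p = 0.0267).

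The RefSeq promoters of Ltf (chr9:111019042-111019341, plus strand) and Ngp (chr9:110419558-110419857, plus strand), both in build GRCm38.p6 and 300 bases long, from 250 bases before to 50 after the start, are shown because both genes carry the letters TTGCNNAA, a pattern read by C/EBP factors that run the granule program. Capitals mark the matches on either strand.
Ltf: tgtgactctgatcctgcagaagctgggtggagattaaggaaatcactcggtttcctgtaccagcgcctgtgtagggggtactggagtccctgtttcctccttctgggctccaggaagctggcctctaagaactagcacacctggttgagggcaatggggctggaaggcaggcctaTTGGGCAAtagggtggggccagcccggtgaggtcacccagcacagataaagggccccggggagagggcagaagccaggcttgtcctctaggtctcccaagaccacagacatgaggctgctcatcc
Ngp: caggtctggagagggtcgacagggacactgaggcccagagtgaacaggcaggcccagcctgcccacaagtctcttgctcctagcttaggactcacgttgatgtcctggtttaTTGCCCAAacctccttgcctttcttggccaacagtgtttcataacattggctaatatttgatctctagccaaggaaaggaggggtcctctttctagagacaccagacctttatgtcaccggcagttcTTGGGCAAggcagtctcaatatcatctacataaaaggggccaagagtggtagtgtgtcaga
The match began at position -75 in Ltf and at -138 and -11 in Ngp. Over the granule list, 5 of the 11 promoters found (45.5%) held this pattern, against 12.2% of 27025 mouse promoters. A match describes letters in this window only.

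Chil3 and Chil4, chitinase-like proteins whose near-identical sequences make their counts uncertain, both rose by 5.33 (log2) in the first step and fell in the second. Chil3 was at 0.171 to 0.417 RPKM in healthy blood, 5.34 to 16.2 RPKM in tumor-bearing blood and 0.0113 to 1.66 RPKM in tumor. Adpgk, an ADP-dependent glucokinase that overlaps Bbs4 on the other strand, followed the same course at 0.728 to 3.15, 17.8 to 39.5 and 0.993 to 10.6 RPKM. Cybb encodes the catalytic subunit of the phagocyte NADPH oxidase. It was measured at 4.49, 5.92, 3.19 and 3.93 RPKM in healthy blood, 22.5, 12.8, 12.5 and 15.9 RPKM in tumor-bearing blood and 4.85, 1.28, 5.97 and 7.45 RPKM in tumor, so that no tumor-bearing blood library overlapped either neighbour. It rose by 1.90 ± 0.36 and fell by 1.78 ± 0.36 on the log2 scale (edgeR, adjusted p = 0.0359 and 0.00296). The other oxidase subunits tested, 5 of 6, were not called in either step. Rab3d, a small GTPase of secretory granules, and Abca13, a lipid transporter gene, were also reversing, at means of 1.96 (log2) up and down for Rab3d and 2.92 up and 1.56 down for Abca13.

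In the granule list 4 of 13 members, Ltf, Camp, Ngp and Chil3, were reversing. Without tumor replicate 1, Mmp8 and Cd177 were reversing as well. Of the 13 specific and gelatinase granule genes tested, 6 rose and 0 fell in the first step, with a list median of 2.76 (log2) against -0.04 over all genes tested. In the second step 0 rose and 7 fell (6 without tumor replicate 1), with a median of -1.63 against 0.10. In the fit of the blood libraries alone, 9 of 13 rose, against 1.79% of the genes tested in that fit. All 4 tumor-bearing blood libraries were above all 4 healthy ones for 10 of 13, against 7.16% of all genes tested. Mmp8, the neutrophil collagenase, shows the spread behind the calls. It was at 70.6, 91.4, 60.7 and 110 RPKM in healthy blood and 904, 833, 287 and 272 RPKM in tumor-bearing blood, without overlap, but was not called in the 12-library model (2.76 ± 0.71, edgeR, adjusted p = 0.103) and was called in the blood libraries alone (edgeR, adjusted p = 0.00424). In tumor Mmp8 was measured at 16.4, 45.1, 180 and 280 RPKM, a wide range with replicate 1 lowest. Cd177, a surface protein of neutrophils, went from 3.85 to 9.79 RPKM in healthy blood to 38.2 to 100 RPKM in tumor-bearing blood, and tumor replicates 1 to 4 were at 2.44, 3.57, 21.7 and 32.7 RPKM. The summed level of the list was 222 RPKM in tumor replicate 1, 524, 968 and 1236 RPKM in the other tumor libraries, 505 to 784 RPKM in healthy and 1639 to 2906 RPKM in tumor-bearing blood. The 12 markers of immature neutrophils include Camp, Ltf, Ngp and Chil3 of this list and the azurophil genes Mpo, Elane, Prtn3 and Ctsg. They summed to 6.83 to 18.8 RPKM in healthy blood, 172 to 527 RPKM in tumor-bearing blood and 12.4 to 72.8 RPKM in tumor. Ngp alone averaged 283 RPKM in tumor-bearing blood, so this sum largely repeats the granule genes. The part of cell age in these results was not tested.

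Genes that fell in blood and rose in tumor included signals to other immune cells. Cd274 encodes PD-L1, the ligand that restrains T cells through PD-1. Its level was 18, 14.4, 29.2 and 49.8 RPKM in healthy blood, 2.21, 1.17, 3.79 and 4.46 RPKM in tumor-bearing blood, and 50.3, 99.6, 47.8 and 42.1 RPKM in tumor. Tumor-bearing blood was below both other groups, and healthy blood replicate 4 reached the tumor range. Cd274 fell by 3.26 ± 0.65 in the first step (edgeR, adjusted p = 0.0473) and rose by 4.57 ± 0.69 in the second (edgeR, adjusted p = 0.000496), while its whole-path change of 1.30 ± 0.60 was not called (edgeR, adjusted p = 0.128). It overlaps a predicted gene on the other strand. Csf1, the growth factor of macrophages, was level in healthy blood at 15.3 to 18.4 RPKM, was 2.06 to 4.23 RPKM in tumor-bearing blood, and was 9.84 to 20.5 RPKM in tumor, with a whole-path change of -0.09 ± 0.43. Tgif1, a repressor of TGF-beta responses, went from 0.766 to 1.13 RPKM through 0.0347 to 0.208 RPKM to 16 to 20.4 RPKM, so that for Tgif1 the tumor was far above both bloods (4.42 ± 0.57, edgeR, adjusted p = 0.000156). Cxcl10, an interferon-induced chemokine, and Prdm1, which encodes the transcriptional repressor Blimp-1, took the same course with first-step changes of -4.42 and -2.71 and second-step changes of 5.01 and 5.27 (log2).

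Calls of a rise in both steps were made for 8 genes, and 1 of them, Olr1, rose more in the second step than in the first by test. Leaving out any 1 blood library gave 0 or 1 stepwise genes, and a gene without both calls may still have risen in both steps. Inhba encodes the shared subunit of activin A, a TGF-beta family ligand. It was at 0.0435, 0.202, 0.289 and 0.419 RPKM in healthy blood, 3.16, 2.67, 1.83 and 2.11 RPKM in tumor-bearing blood, and 10.2, 9.27, 9.83 and 9.31 RPKM in tumor. The 3 groups did not overlap, and the tumor libraries were close together, replicate 1 included. Inhba rose by 3.30 ± 0.55 and then by 2.08 ± 0.51 on the log2 scale (edgeR, adjusted p = 0.0312 and 0.00992), for a whole-path change of 5.38 ± 0.60. The mean in tumor monocytic cells was 107 RPKM. Inhbc, another activin subunit, was on the same path but very low, at 0.0231 to 0.056 RPKM in tumor-bearing blood and 0.143 to 0.194 RPKM in tumor, at least 5.86-fold above a floor of 3 counts per healthy library.

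Upp1, uridine phosphorylase, was measured at 1.29, 2.39, 0.832 and 2.06 RPKM in healthy blood, 9.41, 16.3, 5.19 and 12.3 RPKM in tumor-bearing blood and 20.8, 14.9, 53.0 and 58.3 RPKM in tumor, where replicate 2 overlapped the blood of tumor-bearing mice. AA467197, a gene that also holds the microRNA gene Mir147 and is known to be induced by inflammation, rose by 2.61 and then 1.77 (log2), and Rhov, a small GTPase, by 3.03 and 1.75. Olr1 encodes LOX-1, the receptor for oxidized LDL used elsewhere as a marker of suppressive neutrophils. Its level was 0.223, 0.559, 0.315 and 0.386 RPKM in healthy blood, 1.16, 0.866, 1.23 and 1.12 RPKM in tumor-bearing blood and 24.4, 25.8, 31.6 and 40.8 RPKM in tumor. All 3 groups were apart, and the second step was larger than the first by 3.24 (log2, edgeR, adjusted p = 0.00881). Tceal9 rose by 3.78 and then 1.81. Stil, a centriole duplication gene, was at most 0.00263 RPKM in healthy blood, 0.031 to 0.0767 RPKM in tumor-bearing blood and 0.867, 0.121, 0.415 and 0.11 RPKM in tumor, and its mean in sorted tumor epithelial cells was 2.21 RPKM. Of the 8 genes, 2 were as high in tumor epithelial or stromal cells.

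Genes called in blood and along the whole path, but not in the second step, included a chemoattractant and an iron-binding granule protein. Prok2 encodes prokineticin 2, also called Bv8, a secreted protein that neutrophils release and that acts on vessels and on myeloid cells. It was at 0.131, 0.369, 0.0174 and 0.252 RPKM in healthy blood, 15.1, 17.7, 8.28 and 23.5 RPKM in tumor-bearing blood, and 2.96, 14.7, 18.6 and 17.8 RPKM in tumor. Every library of tumor-bearing mice was above every healthy one, and tumor replicate 1 was the lowest of the 8. Prok2 rose by 6.46 ± 0.85 in the first step (edgeR, adjusted p = 0.00819), with a second-step change of -0.09 ± 0.66, and the steps differed by test (edgeR, adjusted p = 0.00681). A predicted gene lies on the other strand at this locus. Lcn2, lipocalin 2, binds bacterial siderophores. Its level was 26.9, 44.6, 24.1 and 69.7 RPKM in healthy blood, 599, 396, 188 and 274 RPKM in tumor-bearing blood and 51.4, 142, 234 and 304 RPKM in tumor, where replicate 1 lay within the healthy range. Olfm4, olfactomedin 4 of a subset of neutrophils, was 0.519 to 1.22 RPKM in healthy blood, 3.64 to 6.71 RPKM in tumor-bearing blood and 1.88 to 5.93 RPKM in tumor.

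Nos2, inducible nitric oxide synthase, stood at 0.0141, 0.0456, 0.0243 and 0.0194 RPKM in healthy blood, 2.62, 2.66, 0.373 and 0.726 RPKM in tumor-bearing blood and 2.12, 0.0593, 7.03 and 8.98 RPKM in tumor. Tumor replicate 2 was near the healthy level for Nos2 and the other tumor libraries were not. Its first-step change was 5.86 ± 1.12 (edgeR, adjusted p = 0.0378) and its whole-path change 7.33 ± 1.18 (edgeR, adjusted p = 0.000722). Acvrl1, a receptor of the TGF-beta superfamily that shares its locus with the predicted gene Gm16031 on the other strand, was 0.0148 to 0.0923 RPKM in healthy blood, 0.304 to 1.97 RPKM in tumor-bearing blood and 0.446 to 2.75 RPKM in tumor. Pgk1, a glycolytic enzyme with processed pseudogenes, rose by 1.85 ± 0.38 in the first step. Klf5, a transcription factor of epithelia and of maturing myeloid cells, rose by 2.60 ± 0.45 and was measured at 15.8 RPKM in tumor replicate 1 against 3.11 to 5.75 RPKM in replicates 2 to 4 and 2.22 to 4.84 RPKM in tumor-bearing blood, with a mean of 24.7 RPKM in tumor epithelial cells. Ctsl, the lysosomal protease cathepsin L, rose by 1.80 ± 0.36 in the first step and by 3.10 ± 0.38 over the whole path. Its second-step rise of 1.30 (edgeR, adjusted p = 0.017) missed only the fold threshold. The steps of Ctsl did not differ by test (edgeR, adjusted p = 0.654).

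The blood-step genes that fell included interferon-inducible GTPases. Gbp4, Gbp6, Gbp9 and Gbp11, guanylate-binding proteins, and Tgtp1 and Tgtp2, immunity-related GTPases, made up 6 of the 16, and these families hold near-identical and overlapping genes whose counts are uncertain. Gbp9 was at 3.10, 4.63, 6.06 and 10.7 RPKM in healthy blood, 0.363, 0.634, 0.727 and 0.498 RPKM in tumor-bearing blood and 0.482, 1.10, 0.554 and 0.585 RPKM in tumor. All libraries of tumor-bearing mice were below all healthy ones, and Gbp9 fell by 3.47 ± 0.57 in the first step (edgeR, adjusted p = 0.0312). Parp14, an interferon-induced ADP-ribosyltransferase, went from 12.6, 11.4, 32.5 and 45.3 RPKM in healthy blood to 4.42 to 5.68 RPKM in tumor-bearing blood and 4.13 to 5.29 RPKM in tumor. Tas2r143, a bitter taste receptor gene, fell by 2.87 ± 0.51.

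A list of 30 interferon-stimulated genes, which includes other members of these GTPase families but neither Parp14 nor Cxcl10, was lower in tumor-bearing blood without any member passing the 12-library test. All 30 had a lower mean in blood of tumor-bearing than of healthy mice, with a list median of -3.11 (log2) against -0.04 over all genes tested, and 0 were called in that model. In the blood libraries alone 19 of 30 were called lower, against 2.22% of the genes tested in that fit. All 4 tumor-bearing libraries were below all healthy ones for 18 of 30, against 6.97% of all genes tested. Ifit1, an antiviral protein that binds foreign RNA, shows the spread behind this. It was at 35.2, 20.4, 114 and 255 RPKM in healthy blood, 3.20, 2.08, 4.99 and 3.71 RPKM in tumor-bearing blood and 2.87, 73.7, 3.99 and 6.63 RPKM in tumor. Healthy replicates 3 and 4 were several-fold above replicates 1 and 2, all 4 were above the blood of tumor-bearing mice, and tumor replicate 2 alone reached the healthy range. The first-step change of Ifit1 was -4.97 ± 1.29 (edgeR, adjusted p = 0.107), and -4.96 with the blood libraries alone (edgeR, adjusted p = 0.00854). Isg15, a ubiquitin-like modifier, was measured at 6.47, 11.9, 38.3 and 84.7 RPKM in healthy blood, 1.14 to 2.22 RPKM in tumor-bearing blood and 5.81, 91.7, 8.54 and 7 RPKM in tumor. It rose by 4.66 ± 1.19 in the second step (edgeR, adjusted p = 0.0119), whereas its whole-path change of 0.16 ± 1.02 became -2.54 without tumor replicate 2 (edgeR, adjusted p = 0.021).

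Whole-path calls in the interferon list changed with the tumor libraries used. Along the whole path 7 of 30 fell and 0 rose, against 4 without tumor replicate 1, 26 without tumor replicate 2 and 23 without both. Irf7, a transcription factor that amplifies the interferon signal, fell by 2.66 ± 0.80 (edgeR, adjusted p = 0.0259), a call lost without tumor replicate 1 (edgeR, adjusted p = 0.061). Irf7 was 6.10, 8.26, 28.8 and 50.4 RPKM in healthy blood, 1.16 to 4.15 RPKM in tumor-bearing blood and 1.67, 6.19, 2.76 and 1.90 RPKM in tumor. The summed level of the list was 444, 362, 1231 and 2484 RPKM in healthy replicates 1 to 4, 125 to 198 RPKM in tumor-bearing blood and 73.9, 698, 136 and 139 RPKM in tumor replicates 1 to 4. The healthy replicates with low sums were those with Xist and with the platelet chemokine Ppbp at 203 and 210 RPKM, and those with high sums had Ppbp at 1.47 and 9.32 RPKM. Whether sex or carry-over of platelets took part was not tested. Among MHC class I presentation genes, 3 of 10 fell along the whole path, among them Tap1, a peptide transporter, by 2.20 ± 0.54, and 0 rose. Of all genes tested, 8.35% fell and 13.8% rose.

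The RefSeq promoters of Ifit1 (chr19:34640639-34640938, plus strand) and Ifit3 (chr19:34583279-34583578, plus strand), in build GRCm38.p6 and again 300 bases long, are shown because they carry the letters GAAA at both ends with a pair of any bases between, a core of the element that interferon-activated factors bind. Capitals mark the matches, which lie on the opposite strand and so read as the reverse complement.
Ifit1: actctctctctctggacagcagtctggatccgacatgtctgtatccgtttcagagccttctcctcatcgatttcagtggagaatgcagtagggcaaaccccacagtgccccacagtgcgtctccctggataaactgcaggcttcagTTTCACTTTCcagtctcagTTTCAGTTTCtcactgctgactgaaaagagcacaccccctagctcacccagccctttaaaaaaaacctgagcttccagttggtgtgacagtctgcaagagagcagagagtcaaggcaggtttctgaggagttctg
Ifit3: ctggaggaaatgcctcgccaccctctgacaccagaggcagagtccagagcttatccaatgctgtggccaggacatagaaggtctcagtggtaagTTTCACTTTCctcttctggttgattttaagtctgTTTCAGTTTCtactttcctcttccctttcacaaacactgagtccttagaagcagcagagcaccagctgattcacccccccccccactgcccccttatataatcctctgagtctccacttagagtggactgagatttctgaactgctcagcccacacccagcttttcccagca
Matches began at positions -104 and -85 in Ifit1 and at -156 and -122 in Ifit3. Of 23 promoters found for the list, 14 (60.9%) held this pattern, against 3.99% of 27025 mouse promoters.

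**Figure D3:**
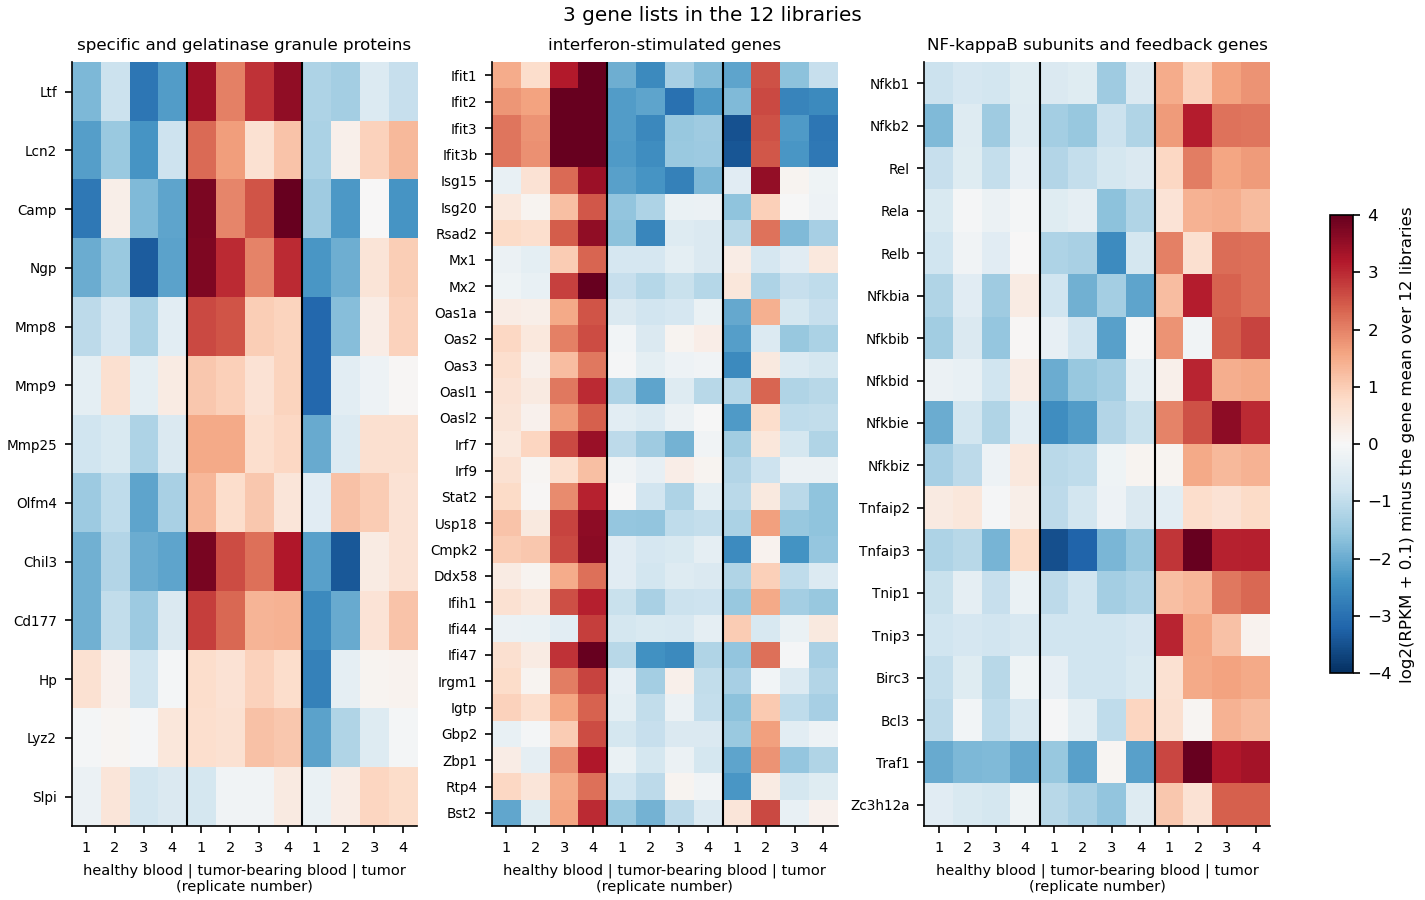
Levels of 13 granule genes (left), 29 interferon-stimulated genes (middle) and 18 NF-kappaB genes (right) in the 12 libraries, as log2(RPKM + 0.1) minus the mean of each gene over the 12 libraries, with colors limited to -4 and 4. Granule genes are high in tumor-bearing blood, interferon genes in healthy blood replicates 3 and 4 and tumor replicate 2, and NF-kappaB genes in all 4 tumor libraries.

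The genes picked out as the largest changes had an average abundance of 5 or more on the log2 CPM scale, which counts reads relative to library size, were also called without tumor replicate 1 and did not overlap between tumor and healthy blood. Within these limits, the genes with the largest rises that were also above their mean in tumor epithelial and stromal cells were Il1a, Lypd8, Dmbt1, Atp10b, F10, Fosl1, Nos2, Cdkn1a, Traf1 and Cxcl3. Il1a encodes interleukin 1 alpha, an alarm cytokine. It was at no more than 0.0733 RPKM in healthy blood, 0.199, 0.0383, 0.948 and 0.136 RPKM in tumor-bearing blood and 41.4, 63.2, 51 and 53.1 RPKM in tumor. No tumor library overlapped blood, and Il1a rose by 11.10 ± 1.30 (log2) along the whole path (edgeR, adjusted p = 0.000103). Its mean in tumor monocytic cells was 118 RPKM. F10, coagulation factor X, was 0.0088 to 0.225 RPKM in blood of either kind and 9.20, 8.79, 5.25 and 5.98 RPKM in tumor, a whole-path rise of 8.08 ± 0.83. Cdkn1a encodes p21, which blocks the cell cycle. It was at 0.327 to 0.837 RPKM in healthy blood, 0.195 to 1.02 RPKM in tumor-bearing blood and 50.4, 90.9, 72.0 and 57.5 RPKM in tumor, and rose by 7.21 ± 0.70 (edgeR, adjusted p = 3.58e-05). Fosl1, a subunit of AP-1, rose by 7.98 ± 1.19, and its level was 12.4, 19.6, 40.5 and 33.6 RPKM in tumor.

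Lypd8, a secreted antibacterial protein of the colon epithelium, Dmbt1, a mucosal scavenger protein, and Atp10b, a lipid flippase, differed widely among the tumor libraries. Lypd8 was 251, 207, 98.3 and 7.97 RPKM in tumor replicates 1 to 4 and at most 0.226 RPKM in blood, Dmbt1 was 30.0, 31.9, 11.1 and 0.341 RPKM in tumor, and Atp10b 2.01, 5.83, 0.567 and 0.193 RPKM. For each of them replicate 4, which had the lowest epithelial markers, was lowest, and the means in sorted tumor epithelial cells were 66.6, 15.5 and 1.89 RPKM. Within the same limits, the largest rises among genes at least as high in tumor epithelial or stromal cells belonged to Apob, Pnliprp1 and Krt19. Krt19, a keratin, was 41.2, 7.80, 7.27 and 1.54 RPKM in tumor, at least 492-fold above a floor of 3 counts per healthy library, and its mean in tumor epithelial cells was 41.9 RPKM. Apob, the apolipoprotein of chylomicrons, was at least 416-fold above that floor. Sprr2a1, Sprr2a2 and Sprr2a3, near-identical epithelial genes, were likewise led by tumor replicate 1, at 3.94 to 4.28 RPKM. The part of epithelial RNA in these rises was not tested. Of the 13 epithelial markers tested, 12 rose along the whole path.

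Within the same limits, the largest falls along the whole path were those of Ppbp, Ly9, Slc9a9, Oprm1, Prr5l, Ighm, Tsc22d3, Ccpg1, Gpr146 and Cyb5r1. Ly9, a receptor of the SLAM family, was 9.25, 7.52, 9.92 and 6.23 RPKM in healthy blood, 4.63, 5.09, 4.09 and 7.03 RPKM in tumor-bearing blood and 0.289, 0.169, 0.217 and 0.258 RPKM in tumor. It was on a tight low level in all 4 tumor libraries and fell by 5.13 ± 0.34 (edgeR, adjusted p = 1.73e-06). Oprm1, the mu opioid receptor gene, was level in blood at 5.17 to 8.40 RPKM in both groups and was 0.0997, 0.247, 0.319 and 0.572 RPKM in tumor. Tsc22d3 encodes GILZ, a glucocorticoid-induced repressor of inflammation. Its level was 5.96 to 11.3 RPKM in healthy blood, 2.11 to 6.18 RPKM in tumor-bearing blood and 0.743, 0.099, 1.02 and 0.577 RPKM in tumor, a fall of 3.92 ± 0.50. Gpr146 held 3.33 to 4.73 RPKM in blood and 0.0676 to 0.729 RPKM in tumor. Ppbp and Mmrn1, made by platelets, were led by healthy replicates 1 and 2, and Ighm, of B cells, fell by 4.03 ± 1.03. Ighd, also of B cells and below the limit on abundance, fell by 7.56. B cell markers did not all fall. Of 4 tested, 3 fell along the whole path (2 without tumor replicate 1), and 1 rose in the second step. Their summed level was 17.6 to 40.7 RPKM in healthy blood and 2.13 to 7.68 RPKM in tumor-bearing blood. In tumor replicates 1 to 4 it was 69.4, 141, 4.96 and 3.12 RPKM.

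Nearly all NF-kappaB genes rose in tumor. Of 18 subunits and feedback genes tested, 17 rose and 0 fell along the whole path, with a median of 2.5 (log2) against 0.06 over all genes tested. In the second step 16 rose, with a median of 3.00. In the first step 0 were called in either direction, with a median of -0.54, and only 0.535% of all genes tested were called. The only member not called along the whole path was Tnfaip2. Nfkbia encodes the inhibitor IkappaB alpha, which NF-kappaB itself induces. It was at 5.51, 9.48, 4.78 and 16.2 RPKM in healthy blood, 7.42, 3.31, 4.92 and 2.93 RPKM in tumor-bearing blood and 30.2, 115, 66.5 and 59.4 RPKM in tumor. Tumor replicate 1 was the lowest and replicate 2 the highest, and all were above all blood libraries. Nfkbia rose by 3.19 ± 0.61 along the whole path and by 4.13 ± 0.64 in the second step (edgeR, adjusted p = 0.00222 and 0.000561). Tnfaip3, the deubiquitinase A20, was 1.39 to 9.09 RPKM in healthy blood, 0.372 to 1.80 RPKM in tumor-bearing blood and 39.3, 118, 45.9 and 46.2 RPKM in tumor. Nfkbie rose by 4.04 ± 0.57 and Traf1, an adaptor of TNF receptors, by 7.01 ± 1.03. Without tumor replicate 1 the count stayed at 17, and without replicate 2 it was 14. Markers of other cell types moved in the same step. Of 10 macrophage and dendritic cell markers tested, 7 rose in the second step, with a median of 4.56 (log2), and along the whole path 3 rose and 1 fell (2 and 1 without tumor replicate 1). Their summed level was 29.6 to 56.3 RPKM in healthy blood, 18.5 to 27.2 RPKM in tumor-bearing blood and 63.6 to 70.9 RPKM in tumor, and C1qa and Flt3 were below the filter. Of 9 fibroblast markers 5 rose in the second step (6 without tumor replicate 1). Their summed level was 0.469 to 1.91, 0.378 to 1.25 and 3.17 to 8.17 RPKM in the 3 groups. The part of these cells and of epithelial cells in the rises of this and the following lists was not tested. In tumor monocytic cells Tnfaip3 had a mean of 28.7 RPKM and Nfkbia of 38.2 RPKM.

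Among neutrophil-attracting CXC chemokines both directions were found. Of 6 tested, 4 rose along the whole path (Cxcl1, Cxcl2, Cxcl3 and the low Cxcl5) and the platelet genes Ppbp and Pf4 fell. The call of Pf4 (edgeR, adjusted p = 0.0467) was lost without tumor replicate 1 (edgeR, adjusted p = 0.0572), that of Ppbp was not. Cxcl2 was at 1.34, 2.66, 0.84 and 46.8 RPKM in healthy blood, 10.5, 7.57, 35.3 and 26.6 RPKM in tumor-bearing blood and 336, 906, 753 and 638 RPKM in tumor. Healthy replicate 4 was far above the other healthy libraries, and every tumor library was above all blood. Cxcl2 rose by 5.82 ± 1.31 along the whole path (edgeR, adjusted p = 0.00578). Cxcl1 was measured at 0.073 to 0.663 RPKM in healthy blood, 0.166 to 0.728 RPKM in tumor-bearing blood and 10.7, 32.6, 12.5 and 12.7 RPKM in tumor, and tumor epithelial cells held a mean of 11.5 RPKM. Cxcl3 was 37.4, 150, 70.9 and 66.5 RPKM in tumor and no more than 4.22 RPKM in blood. Among CC chemokines 3 of 5 tested rose, namely Ccl2, Ccl3 and Ccl4. Ccl3, which attracts monocytes and lymphocytes, was 2.98, 5.94, 7.29 and 36.0 RPKM in healthy blood, 0.566, 0.913, 19.7 and 10.6 RPKM in tumor-bearing blood and 280, 1501, 299 and 253 RPKM in tumor.

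The RefSeq promoters of Nfkbia (chr12:55492598-55492897, minus strand) and Cxcl2 (chr5:90903649-90903948, plus strand), in build GRCm38.p6 and 300 bases long, are shown because they carry the letters GGGA, a pair of any bases and TTCC on either strand, a form of the NF-kappaB site. Capitals mark the matches.
Nfkbia: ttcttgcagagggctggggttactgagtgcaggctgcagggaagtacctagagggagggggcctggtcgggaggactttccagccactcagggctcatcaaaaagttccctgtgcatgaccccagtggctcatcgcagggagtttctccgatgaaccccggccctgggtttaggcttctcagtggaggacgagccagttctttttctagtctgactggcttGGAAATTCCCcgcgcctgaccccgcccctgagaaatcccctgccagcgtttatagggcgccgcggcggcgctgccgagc
Cxcl2: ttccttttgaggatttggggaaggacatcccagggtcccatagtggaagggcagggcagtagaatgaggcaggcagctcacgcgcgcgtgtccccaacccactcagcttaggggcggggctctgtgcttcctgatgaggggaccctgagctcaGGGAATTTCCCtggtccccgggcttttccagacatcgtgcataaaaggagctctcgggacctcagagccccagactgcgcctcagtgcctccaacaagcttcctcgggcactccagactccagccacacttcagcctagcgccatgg
The match began at -29 in Nfkbia, and in Cxcl2 a pair of overlapping matches began at -97 and -96. This strict pattern was in 3 of 5 promoters of the CXC chemokine list (60%), in 2 of 15 of the NF-kappaB list (13.3%) and in 1.63% of 27025 mouse promoters. In the interferon list the share was much the same as in the NF-kappaB list, at 3 of 23 (13%), and in the granule list it was 0 of 11.

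Receptors for chemoattractants were called in part. Cxcr2 itself was 561, 386, 372 and 617 RPKM in healthy blood, 471 to 623 RPKM in tumor-bearing blood and 60.4, 441, 325 and 380 RPKM in tumor. Tumor replicate 1 was far below all other libraries, and replicate 3 was also below every blood library. The whole-path change of Cxcr2, -0.45 ± 0.56, was not called. Csf3r, the receptor of G-CSF, was 296 to 363 RPKM in healthy blood and 51.6, 192, 182 and 201 RPKM in tumor. These groups did not overlap, but Csf3r was also not called. Of the 13 receptors tested 3 rose (Ccrl2, Fpr1 and Ptafr) and 1 fell (S1pr4) along the whole path, where 13.8% of all genes tested rose and 8.35% fell. Without tumor replicate 1 the complement receptor gene C5ar1 was also called, at 1.81 (edgeR, adjusted p = 0.00151). Fpr1, the receptor of formylated bacterial peptides, was 25.9, 24.2, 20.6 and 35.6 RPKM in healthy blood, 95.2, 101, 74.3 and 52.1 RPKM in tumor-bearing blood and 35.1, 88.8, 166 and 208 RPKM in tumor. It rose by 2.30 ± 0.48 along the whole path (edgeR, adjusted p = 0.00389), and its first-step change of 1.60 ± 0.47 was called in the blood libraries alone (edgeR, adjusted p = 0.00585) but not in the 12-library model. Ptafr, the receptor of platelet-activating factor, was lower in tumor-bearing blood at 12.4 to 21.5 RPKM than in healthy blood at 24.9 to 37.7 RPKM, without passing the test, and was 62.7, 131, 150 and 156 RPKM in tumor. S1pr4, a receptor of sphingosine 1-phosphate, was 0.366 to 1.08, 0.712 to 3.79 and at most 0.202 RPKM in the 3 groups and fell by 4.51 ± 0.82 in the second step.

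Cytokines of the interleukin 1 family rose unevenly. Of 10 genes tested, 6 rose along the whole path and 0 fell, with the agonist Il1a, the antagonist Il1rn, the decoy receptor Il1r2, the receptor chains Il1r1 and Il1rap, and the inflammasome sensor Nlrp3 called. The call of Il1r1 (edgeR, adjusted p = 0.0426) was lost without tumor replicate 1 (edgeR, adjusted p = 0.0913), which left 5. Il1b, the main secreted agonist, was not among them. It was at 581, 694, 556 and 725 RPKM in healthy blood, 98.0, 170, 364 and 312 RPKM in tumor-bearing blood and 291, 1129, 776 and 627 RPKM in tumor, so that blood of tumor-bearing mice was below all healthy libraries and tumor spanned the healthy range. Its first-step change of -1.38 ± 0.57 was not called (edgeR, adjusted p = 0.365), and it rose by 1.79 ± 0.58 in the second step (edgeR, adjusted p = 0.0361). Il1rn took a similar course at a lower level, with 29.2 to 50.3 RPKM in healthy blood, 11.9 to 24.5 RPKM in tumor-bearing blood and 93.5, 221, 189 and 187 RPKM in tumor, where it ended 2.27 ± 0.46 (log2) above healthy blood (edgeR, adjusted p = 0.00327).

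Of 17 other cytokines and growth factors tested, 10 rose and 2 fell along the whole path, and 12 rose and 1 fell in the second step. Tnf was 3.41, 5.80, 5.38 and 5.28 RPKM in healthy blood, 2.63 to 6.64 RPKM in tumor-bearing blood and 27.0, 74.3, 26.0 and 36.6 RPKM in tumor. Spp1, osteopontin, was at 0.338 to 0.838 RPKM in healthy blood, 0.149 to 1.29 RPKM in tumor-bearing blood and 19.9, 19.4, 42.1 and 46.4 RPKM in tumor, a rise of 5.71 ± 0.73. Vegfa, the vessel growth factor, went from 1.08 to 2.00 RPKM through 0.503 to 1.72 RPKM to 5.60 to 9.72 RPKM, and its mean in tumor monocytic cells was 39.5 RPKM. Hbegf and Areg, ligands of the EGF receptor, rose by 7.60 and 6.48 (log2). Tnfsf14, which encodes LIGHT, and Hgf, hepatocyte growth factor, fell by 1.92 and 1.57. Without tumor replicate 1, Hgf was at -1.47 (log2), short of the fold threshold, and 1 of the 17 fell.

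Genes of hypoxia and glycolysis had a median above that of all genes in both steps. Of 30 tested, 16 rose and 1 fell along the whole path, with a median of 1.96 (log2), and 16 rose and 1 fell without tumor replicate 1 as well. The list median was 0.84 in the first step against -0.04 over all genes tested, and 0.58 in the second. In the first step only Pgk1 was called in the 12-library model. In the blood libraries alone 5 of 30 rose, against 1.79% of the genes tested in that fit. All tumor-bearing blood libraries were above all healthy ones for 13 of 30, against 7.16% of all genes tested. Hif1a encodes the oxygen-regulated transcription factor HIF-1 alpha. It was at 3.30, 3.72, 2.25 and 3.51 RPKM in healthy blood, 7.27, 5.76, 5.5 and 6.55 RPKM in tumor-bearing blood and 13.8, 12.7, 27.8 and 29.6 RPKM in tumor. The 3 groups did not overlap. Its first-step change of 1.00 ± 0.30 stayed below the fold threshold, and it rose by 1.77 ± 0.31 in the second step (edgeR, adjusted p = 0.00119). Slc2a1, the glucose transporter GLUT1, showed the same order at 4.90 to 11.9, 13.4 to 20 and 31.8 to 80.3 RPKM.

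Other oxygen-regulated genes moved in tumor. Hilpda, which inhibits lipid breakdown in hypoxia and was listed with the tumor neutrophil markers, was 0.00293 to 0.0917 RPKM in healthy blood, 0.0076 to 0.163 RPKM in tumor-bearing blood and 13.1, 5.25, 19.8 and 14.0 RPKM in tumor, a rise of 8.78 ± 1.11 (edgeR, adjusted p = 0.000149). Egln3, a prolyl hydroxylase that marks HIF for breakdown, was 0.936 to 2.40, 2.00 to 4.60 and 11.4 to 29.6 RPKM in the 3 groups. Ero1l, an oxidase of the endoplasmic reticulum, rose by 4.67 ± 0.37 (edgeR, adjusted p = 1.21e-05), from 1.02 to 2.21 RPKM in healthy blood to 29.8 to 46.9 RPKM in tumor. The member that fell was Pfkfb4, one of the regulators of glycolytic flux, at 8.09 to 11.1 RPKM in healthy blood, 7.29 to 10.6 RPKM in tumor-bearing blood and 0.666, 1.25, 3.94 and 2.89 RPKM in tumor, whereas Pfkfb3, Pfkl and Pfkp rose. Gapdh, Ldha, Eno1 and Aldoa were not called. Without tumor replicate 1 Aldoa was called, at 1.65 (edgeR, adjusted p = 0.0186), and Tpi1, another glycolytic enzyme, no longer was (edgeR, adjusted p = 0.0609). The levels of Gapdh, Ldha, Eno1 and Aldoa were low here, at group means of at most 2.47 RPKM, and their many pseudogenes make their counts uncertain.

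Most iron and oxidative stress genes were called in tumor. Of 13 tested, 8 rose and 1 fell along the whole path and in the second step. Along the whole path 13.8% of all genes tested rose and 8.35% fell. In the first step 0 of the 13 were called, where only 0.535% of all genes tested were called. Fth1, ferritin heavy chain, which stores iron, was 80.0, 119, 57.7 and 98.9 RPKM in healthy blood, 83.8 to 108 RPKM in tumor-bearing blood and 474, 538, 1069 and 1010 RPKM in tumor. It rose by 3.21 ± 0.36 (edgeR, adjusted p = 7.77e-05). Slc40a1 encodes ferroportin, the exporter of iron from cells, and went the other way at 28.2, 34.1, 21.5 and 25.9 RPKM in healthy blood, 14.3, 17.5, 17.6 and 17.4 RPKM in tumor-bearing blood and 3.99, 1.81, 3.02 and 3.88 RPKM in tumor. All 3 groups were apart, and Slc40a1 fell by 3.10 ± 0.26 (edgeR, adjusted p = 1.4e-05). Tfrc, the transferrin receptor that takes iron up, rose by 4.27 (log2), Hmox1, heme oxygenase 1, by 2.28, and Slc7a11, the cystine importer, by 3.47. Txnrd1, thioredoxin reductase 1, was 0.561 to 2.05 RPKM in healthy blood, 0.638 to 1.18 RPKM in tumor-bearing blood and 15.1 to 29.8 RPKM in tumor.

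Genes that protect from and genes that promote cell death were both among those that rose in tumor. In the Bcl2 family 5 of 14 tested rose and 1 fell along the whole path, and 7 rose in the second step. Bcl2l1, which encodes the protective protein BCL-XL, was 0.312, 0.579, 0.325 and 0.25 RPKM in healthy blood, 2.06, 1.28, 0.912 and 0.934 RPKM in tumor-bearing blood and 3.20, 6.35, 9.09 and 9.35 RPKM in tumor. The 3 groups did not overlap, but the first-step change of 1.85 ± 0.42 missed the threshold (edgeR, adjusted p = 0.0723) and passed it with the blood libraries alone (edgeR, adjusted p = 0.00964). Bcl2l11 encodes BIM, which promotes death. It was 4.77 to 8.10 RPKM in healthy blood, 1.94 to 3.81 RPKM in tumor-bearing blood and 37.6, 51.4, 71.5 and 77.1 RPKM in tumor, and rose by 3.49 ± 0.41 along the whole path (edgeR, adjusted p = 0.000106). The protective genes Bcl2a1a, Bcl2a1b and Bcl2a1d, near-identical copies whose counts cannot be separated with certainty, each rose by 4.00 to 4.02 (log2). Bid, which links death receptors to mitochondria, fell by 1.66, a call lost without tumor replicate 1 (-1.46, edgeR, adjusted p = 0.0529).

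Genes tied to suppression of T cells, the question the study put to these cells, were called in part. Of 12 tested, 6 rose and 0 fell along the whole path (Arg1, Arg2, Nt5e, Il10, Nos2 and Ptgs2). Il10, an anti-inflammatory cytokine, was 0.257, 0.0379, 0.0992 and 0.547 RPKM in healthy blood, 0.0381 to 0.22 RPKM in tumor-bearing blood and 5.03, 4.75, 7 and 6.98 RPKM in tumor. It rose by 4.67 ± 0.82 (edgeR, adjusted p = 0.00124), and the 2-sided exact permutation test of the RPKM means gave 0.0286, the smallest p that 4 against 4 libraries allow. Arg2, the mitochondrial arginase, was 24.4 to 37.2 RPKM in healthy and 31.7 to 36.8 RPKM in tumor-bearing blood and 34.2, 130, 89.1 and 103 RPKM in tumor, where replicate 1 lay within blood. Arg1, the cytosolic arginase, rested on tumor replicate 1. It was 2.94, 0.0132, 0.0187 and 0.428 RPKM in tumor against 0.017 to 0.0361 RPKM in healthy blood, its whole-path change of 4.59 ± 1.32 (edgeR, adjusted p = 0.0209) became 2.43 without replicate 1 (edgeR, adjusted p = 0.1), and the 2-sided exact permutation test gave p = 0.4.

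Entpd1 and Nt5e encode CD39 and CD73, which turn extracellular ATP into adenosine. Entpd1 was 31.1, 29.1, 25.9 and 26.2 RPKM in healthy blood, 19.2, 19.6, 21.4 and 20.3 RPKM in tumor-bearing blood and 31.1, 66.5, 88.2 and 96.2 RPKM in tumor. The blood of tumor-bearing mice was below both other groups. Its whole-path change of 1.46 ± 0.38 was just under the fold threshold, and without tumor replicate 1 it was called at 1.76 (edgeR, adjusted p = 3.66e-05). Nt5e rose by 3.35 ± 0.58, from 0.102 to 0.331 RPKM in healthy blood to 0.988, 2.00, 1.67 and 2.55 RPKM in tumor. Ptgs2, cyclooxygenase 2, was 14.0, 17.7, 20.6 and 29.2 RPKM in healthy blood, 0.81, 1.44, 12.4 and 16.1 RPKM in tumor-bearing blood and 58.7, 323, 85.2 and 48.5 RPKM in tumor, a rise of 3.07 ± 1.01 (edgeR, adjusted p = 0.0389). Tbxas1, thromboxane synthase, fell in tumor by 3.10 ± 0.32.

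Mmp9, gelatinase B, one of the enzymes the study followed, was 46.4, 93.4, 46.4 and 75.7 RPKM in healthy blood, 127, 116, 89.2 and 113 RPKM in tumor-bearing blood and 6.81, 45.5, 52.8 and 61.6 RPKM in tumor. Tumor overlapped healthy blood, replicate 1 was far below the other tumor libraries, and Mmp9 was called in no step of the 12-library model (whole path -0.45 ± 0.54, edgeR, adjusted p = 0.572). Retnlb, a resistin-like protein gene, was 23.2 to 64.0 RPKM in healthy blood, 134 to 263 RPKM in tumor-bearing blood and 14.7, 60.1, 109 and 107 RPKM in tumor. Its first-step change of 2.20 ± 0.55 was called in the blood libraries alone (edgeR, adjusted p = 0.0038) and without tumor replicate 1 (edgeR, adjusted p = 0.00506), but not with all 12 libraries (edgeR, adjusted p = 0.0932). Tgfb1, the main TGF-beta gene of leukocytes, was 1.73 to 3.30, 1.00 to 3.19 and 0.591 to 3.30 RPKM in the 3 groups and was not called, with a whole-path change of -0.44 ± 0.50. Tgfb2 rose by 4.97 ± 0.88 to 0.972, 0.30, 0.38 and 0.207 RPKM in tumor, where the mean in sorted epithelial cells was 2.14 RPKM. Tgfb3 was at most 0.308 RPKM in any library and was not called.

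Markers that other work has given to tumor neutrophils mostly rose in the second step. Of 20 tested, 15 rose and 0 fell along the whole path and 14 rose in the second step, while in the first step 1 rose (Olr1) and 1 fell (Csf1). Cd14, a co-receptor for bacterial lipopolysaccharide, was 36.8 to 105 RPKM in healthy blood, 78.4 to 166 RPKM in tumor-bearing blood and 363, 749, 1166 and 1147 RPKM in tumor, a rise of 3.93 ± 0.51 (edgeR, adjusted p = 0.000166). Trem1, which amplifies inflammatory signals, was 6.72 to 16.4 RPKM in healthy blood, 13.1 to 26.4 RPKM in tumor-bearing blood and 22.2, 128, 98.3 and 116 RPKM in tumor, with replicate 1 in the range of blood. Bhlhe40, a transcription factor, was 0.985 to 2.65, 0.359 to 1.71 and 44.5 to 60.9 RPKM in the 3 groups, with the tumor libraries close together. Siglecf, which marks a tumor neutrophil state in other models, averaged 2.78, 1.58 and 1.97 RPKM in the 3 groups and was not called.

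**Figure D4:**
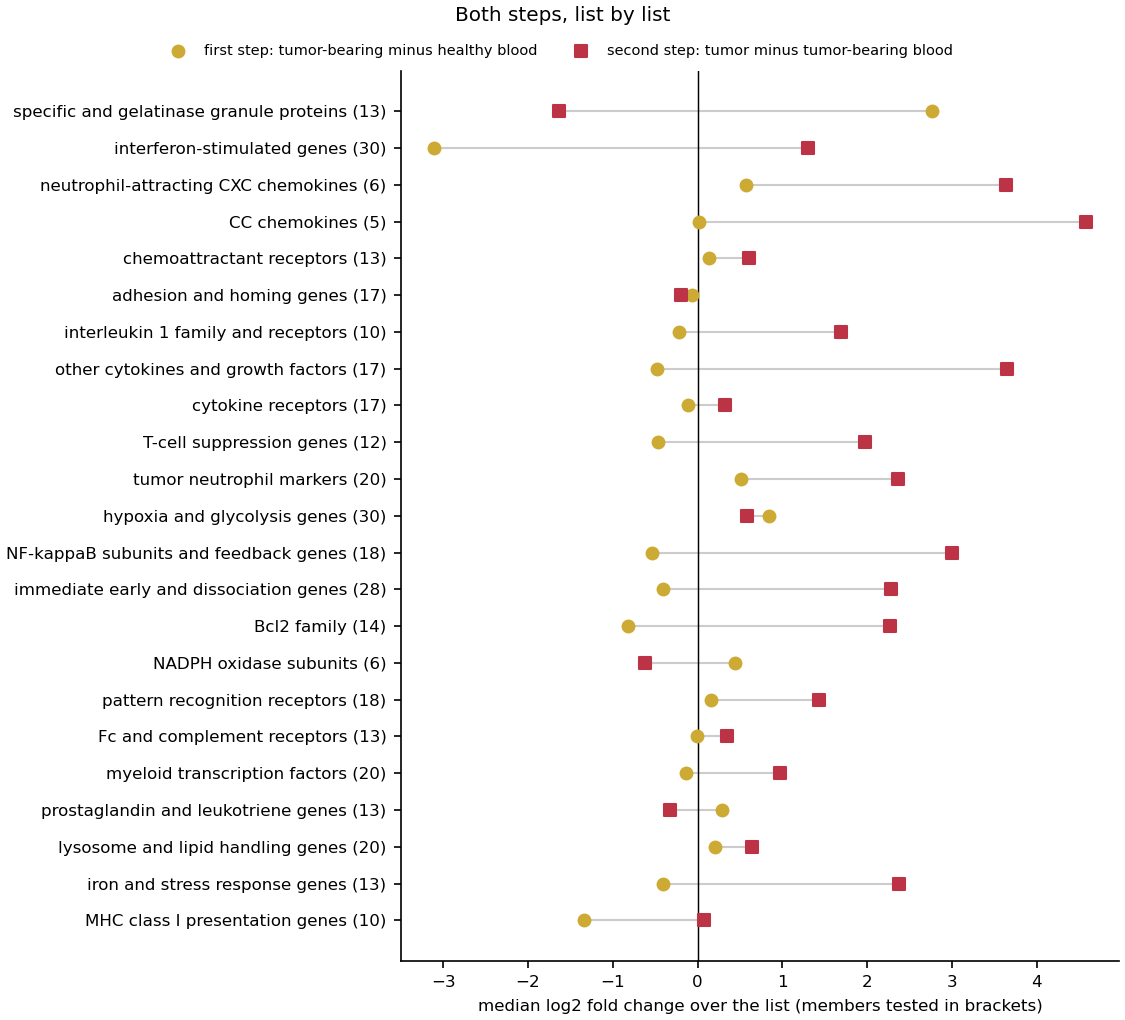
Median log2 fold change of each gene list in the first step (circles) and the second step (squares), with the number of members tested in brackets. Granule genes move from 2.76 to -1.63 and interferon genes from -3.11 to 1.30, whereas NF-kappaB genes lie at -0.54 and 3.00. The summed interferon list was at 698 RPKM in tumor replicate 2 and 73.9, 136 and 139 RPKM in replicates 1, 3 and 4. In tumor-bearing blood it was 125 to 198 RPKM. Both steps share the tumor-bearing blood libraries.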

How the data were processed

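RNA was amplified with the NuGEN Ovation V2 kit, made into libraries that do not keep strand, and sequenced on an Illumina HiSeq. The authors aligned the reads to mm10 with Bowtie2 through HTSstation and deposited expected counts per gene, which need not be whole, and RPKM. The annotation and the treatment of reads with several matches are not given in the sources used here. The deposited RPKM follow from these counts after division by a factor for each library and a length for each gene. Expected counts were rounded, filtered with filterByExpr (15141 of 45706 genes kept), scaled by TMM and fitted for 12 libraries in 1 model by edgeR 4.0.16 in R 4.3.3 (quasi-likelihood F test, robust option), with Benjamini-Hochberg adjustment over all genes tested. The study's thresholds were kept, an adjusted p under 0.05 and an absolute log2 fold change over 1.5, and its tool, limma-voom, was an alternative. Depth of 10716847 to 19260023 counts per library limits the precision of low genes.

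The members, lists and tests were chosen with earlier results of these data known. Named genes were the 10 largest rises and falls along the whole path and 3 rises with an epithelial or stromal level as high, among genes averaging 5 or more in log2 CPM whose groups did not overlap and which were also called without tumor replicate 1, up to 6 genes per path and direction averaging 3 or more, members of the lists, and 12 genes named by the study. Abca13, Rab3d, Cxcl10, Prdm1, Stil, Tceal9, Inhbc and Ighd were named after their values were seen. Single genes were tested by 2-sided exact permutation over 70 arrangements. Replicate numbers did not pair the animals, since same-numbered libraries deviated from their group means with correlations between -0.139 and 0.111. The model was tested on simulated data of 15141 genes, in which 99.3% of 150 genes changed 16-fold or more were called along the whole path. The changed genes were drawn from the more abundant ones, so recovery of low genes was not tested. Alternatives were DESeq2 1.42.0, limma 3.58.1 with and without weights, other scalings and filters, RPKM with a pseudocount of 0.1 or 1, each pair of groups alone, Xist as a covariate, a replicate block, and each library left out. A fit of the 8 libraries without Xist transcripts was added after seeing the data. Promoters came from RefSeq, and 9631 of the 15141 genes had one. The values of 1 gene counted in the interferon list are not reported here.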

Additional observations from a re-analysis of the deposited data

Results flagged for a closer look

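Of 375 groups of 4 libraries checked, 41 had 1 library far from the other 3 by Dixon's criterion, where chance gives about 5% of groups. These are values only, and no cause was tested.

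In tumor, replicate 1 had the highest epithelial marker level, 71.9% of that in sorted tumor epithelial cells. The highest tumor library was also far from the others for Pnliprp1 (45.7 RPKM), Krt19 (41.2 RPKM), Tshb (0.0736 RPKM), Arg1 (2.94 RPKM), Tas2r143 (2.99 RPKM), Gbp9 (1.1 RPKM), Cd274 (99.6 RPKM), Csf1 (20.5 RPKM), Ptgs2 (323 RPKM), Cxcl1 (32.6 RPKM), Ccl3 (1501 RPKM), Tnfaip3 (118 RPKM) and Txnrd1 (29.8 RPKM). The same held for the interferon genes Ifit1 (73.7 RPKM), Ifit2 (13.6 RPKM), Ifit3 (34.0 RPKM) and Isg15 (91.7 RPKM), in each case in tumor replicate 2. Csf3r was far lower in tumor replicate 1, at 51.6 RPKM.

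In healthy blood the highest library stood apart for Fosl1 (0.373 RPKM), Cxcl3 (3.02 RPKM), Cyb5r1 (31.8 RPKM), Camp (1.71 RPKM), Chil3 (0.417 RPKM), Cxcl2 (46.8 RPKM), Ccl3 (36.0 RPKM), Tnfaip3 (9.09 RPKM), Hilpda (0.0917 RPKM) and Bcl2l11 (8.1 RPKM), and the lowest for Ctsl (1.39 RPKM). In blood of tumor-bearing mice the highest library stood apart for Lypd8 (0.226 RPKM), Traf1 (0.533 RPKM), Sprr2a2 (0.00504 RPKM), Sprr2a1 (0.00488 RPKM), Tshb (0.677 RPKM), Abcg3 (0.97 RPKM) and Spp1 (1.29 RPKM), and the lowest for Gbp4 (0.0528 RPKM), Txnrd1 (0.638 RPKM), Slc40a1 (14.3 RPKM) and Hspa1a (0.177 RPKM).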

How the results depend on the processing

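Whole-path and second-step counts were stable against most settings, whereas first-step calls, and with them the stepwise, blood-step and reversing paths, rested on few libraries. Leaving out 1 library at a time gave 2814 to 4402 whole-path calls, 2990 to 4218 second-step calls, 3 to 403 first-step calls, 2161 to 3001 tumor-step, 1 to 191 blood-step, 2 to 122 reversing and 0 to 26 stepwise genes. The lowest first-step count came without healthy replicate 3 and the highest without tumor replicate 2. In the order first-step, blood-step, reversing and stepwise, where the reported counts were 81, 38, 25 and 8, DESeq2 gave 562, 194, 206 and 45, weighted limma-voom 997, 439, 247 and 59, each pair of groups alone 536, 119, 82 and 20, at least 10 counts in every library 212, 82, 55 and 10, leaving out tumor replicates 1 and 2 together 611, 277, 140 and 31, Xist as a covariate 39, 20, 10 and 4, no filter 44, 20, 14 and 6, and log2 RPKM with a pseudocount of 0.1 141, 73, 37 and 7. RLE size factors gave 63, 27, 20 and 6, limma-voom 77, 33, 24 and 8, and a pseudocount of 1 82, 37, 24 and 2. The 8 libraries without Xist transcripts, an alternative chosen after seeing the data, gave 0 of each in edgeR, with 936 genes at an unadjusted p under 0.05, against 1713 in the 12 libraries. Whole-path, second-step and tumor-step counts were 3358, 3303 and 2358, and became 1105, 805 and 579 in those 8 libraries, 1460, 1328 and 924 with at least 10 counts, 795, 712 and 494 with log2 RPKM and a pseudocount of 1, and 2453, 2229 and 1098 with each pair alone. The cause of these differences was not tested, and some fits held fewer genes or libraries.

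The replicate numbers did not pair the animals, with correlations of -0.139 to 0.111, and not every library correlated best with its own number. With a replicate block, first-step calls went from 81 to 6, blood-step from 38 to 3, reversing from 25 to 3 and stepwise from 8 to 0, with 2668 whole-path, 2625 second-step and 1866 tumor-step calls.

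The share of first-step calls that were higher was 65.4%, and 38.3% with a pseudocount of 0.1, 39.4% with weighted limma-voom, 43.6% with DESeq2, 46.2% with at least 10 counts, 44.6% in pairs alone and 83.3% with the block. For the whole path it was 62.3%, 50.1% with limma-voom and 50.7% with the pseudocount of 0.1, and for the second step 67.3%, 55.6% and 57.3%. Xist changed sign with Xist as a covariate, at 0.38 for the whole path and 0.32 for the second step, and at 0.29 for the second step in the 8 libraries without its transcripts. Isg15 ranged from -2.54 (without tumor replicate 2) to 1.01 (without healthy replicate 4) for the whole path when 1 library was left out.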

Other observations

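Receptors for microbial products rose in part. Of 18 pattern recognition receptors tested, 8 rose and 1 fell along the whole path, and 9 rose and 1 fell without tumor replicate 1. For the lists of this paragraph, the whole-path shares of all genes tested were 13.8% higher and 8.35% lower. Tlr1, which pairs with TLR2, was 1.93, 1.38, 0.659 and 0.969 RPKM in healthy blood, 6.28, 7.78, 4.36 and 4.49 RPKM in tumor-bearing blood and 3.00, 9.82, 8.87 and 7.82 RPKM in tumor, and rose by 2.82 ± 0.49 (log2, edgeR, adjusted p = 0.00125). Tlr5, the flagellin receptor, fell by 1.81. Among adhesion and homing genes 3 of 17 rose (Icam1, Cd9 and Thbs1) and Itga4 fell by 2.04, shares near those of all genes tested (13.8% and 8.35%). Lysosome and lipid genes gave 6 rises and 1 fall in 20, the fall, of Ctss, being lost without tumor replicate 1 (edgeR, adjusted p = 0.0842), and the rises were led by Gpnmb at 9.33 and the cholesterol exporter Abca1 at 6.22. Of 13 Fc and complement receptors 1 rose, and 2 without tumor replicate 1. Of 17 cytokine receptors 3 rose, also near the share of all genes, and 6 without tumor replicate 1, when Csf2rb, Csf2rb2 and Ifnar2 passed the fold threshold at 1.54, 1.67 and 1.63 (log2).

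Of 28 immediate early and heat shock genes, which tissue digestion is also known to induce, 14 rose along the whole path and 0 fell. Of the 14, 10 were as high in tumor epithelial or stromal cells, near the 68.9% among all genes that rose along the whole path. Without tumor replicate 1, 12 rose, and Egr2 and Atf3 were no longer called (edgeR, adjusted p = 0.0581 and 0.0602). Fos was not called, at 47.5 to 65.9 RPKM in healthy blood and 34.3, 74.8, 23.6 and 13.9 RPKM in tumor. Hspa1a, near-identical to Hspa1b, was 20.2, 9.92, 6.12 and 5.35 RPKM in tumor against 0.493 to 0.851 RPKM in healthy blood. The part of digestion was not tested.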
